A study of Mus musculus with 3 samples.

Results

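The collagens of the mouse ovary were examined as a gene family, as every row of the table whose symbol reads *Col*, a number, *a*, a number and nothing more. Of the 24958 genes of the table, 44 had such a symbol and 43 of them had unique molecular identifiers (UMIs, single captured transcript molecules) in 10 or more cells. The row that did not pass was *Col2a1*, with 6 UMIs in 6 cells. The 43 members held 792841 UMIs, or 0.330% of all UMIs. The table holds single-cell RNA-seq of mouse ovaries labelled hCG0h, hCG1h and hCG6h, which were collected 0, 1 and 6 h after mice were injected with hCG (human chorionic gonadotropin, which binds the receptor for luteinizing hormone and sets off ovulation), with 1 library for each time. The study describes Kunming mice, a prepubertal age and priming with pregnant mare serum gonadotropin (PMSG, which drives follicle growth) for ovaries that did not receive hCG. Whether the ovaries at 1 and 6 h were primed as well, and how many animals went into a library, are not given in the sources used here. The cells carry barcodes that end in 1, 2 or 3, here called sets 1, 2 and 3. No label ties a barcode ending to a time after hCG, so the sets were compared as 3 unnamed libraries and no value was assigned to a time.

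Collagens are secreted proteins built of 3 chains wound into a triple helix, and their genes fall into classes by the structure the chains form. Fibrillar collagens build the fibrils of connective tissue, network collagens such as type IV build the basement membranes under epithelia and around vessels, and fibril-associated, beaded-filament and transmembrane collagens link these structures to each other and to cells. In the ovary, a fibrillar matrix fills the stroma and the theca outside each follicle, and a basement membrane separates the theca and its vessels from the granulosa cells within, until it is remodelled around ovulation.

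The 31776 cells had a median of 6347.5 UMIs, with 6093, 6352 and 6524 in sets 1, 2 and 3, and 112 barcode sequences occurred in more than 1 set. Cells were assigned to gates, groups chosen in the data by marker genes and not by a sort: stroma (*Dcn*, *Lum*, *Pdgfra*, *Tcf21*, *Dpt*, *Mfap4*, *Ogn*, *Nr2f1*; 8866 cells), vascular mural cells (*Rgs5*, *Notch3*, *Kcnj8*, *Abcc9*, *Higd1b*, *Cspg4*, *Mcam*, *Ndufa4l2*, *Ednra*; 439 cells), endothelial cells (*Pecam1*, *Cdh5*, *Emcn*, *Kdr*, *Egfl7*, *Cldn5*, *Flt1*, *Tie1*, *Esam*; 1641 cells), theca (*Cyp17a1*, *Insl3*, *Aldh1a1*, *Cyp11a1*, *Hsd3b1*, *Fdx1*, *Hao2*, *Mgarp*; 2019 cells) and granulosa (*Amh*, *Fst*, *Gatm*, *Hsd17b1*, *Inha*, *Inhba*, *Inhbb*, *Kctd14*, *Nr5a2*, *Serpine2*; 13069 cells). No collagen was used to choose a gate. Each of these markers was above 0 in its own gate in every set, although *Gatm*, *Kctd14*, *Amh*, *Dpt* and *Nr2f1* were low. *Insl3* was low in sets 2 and 3 (0.381 and 0.211 UMIs per 10000). Some markers were higher in another gate. *Gatm* was at 0.28 in granulosa, 3.45 in myeloid, 1.02 in mural and 0.55 in endothelial cells. *Nr2f1* was at 0.102 in stroma and 0.252 in mural cells, and *Ogn* at 8.97 in stroma and 11.7 in contractile smooth muscle. Cells within 0.02 of the margin that decided a gate numbered 337 in stroma, 32 in mural, 16 in endothelial, 64 in theca and 466 in granulosa, and 106 of 524 in contractile smooth muscle. A level below is the mean over the cells of a gate of UMIs per 10000 UMIs of the cell, and it is not scaled to transcript length, so each gene is compared with itself across gates and sets. The highest and the next gate of a gene refer to these 5 gates. Contractile smooth muscle cells, outside them, had higher levels than each of the 5 for 6 of the 43 members (*Col1a1*, *Col4a3*, *Col4a4*, *Col6a4*, *Col11a1* and *Col11a2*). With 1 library in each set there was no replicate and no test. The 95% intervals in parentheses cover counting error only, and a value is called higher or lower in a set when its ratio to set 1 passed 1.5 fold.

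Several members lie next to each other in the genome, and their sequences are shown because the ratios of such neighbours between the sets are compared further on. *Col4a4* (chr1:82448423-82586849, minus strand; GENCODE M21 on GRCm38) and *Col4a3* (chr1:82586921-82722059, plus strand) run away from each other, with their annotated starts 72 bases apart. The 71 bases between them lie at chr1:82586850-82586920, outside both genes, and are printed on the plus strand from RefSeq for GRCm38.p6. The interval has 69.0% G and C and holds none of the 3 promoter motifs searched on both strands, which were CCAAT (the CCAAT box), the motif GGGCGG known as the GC box, and TATAAA as the TATA box.

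Col4a4 to Col4a3: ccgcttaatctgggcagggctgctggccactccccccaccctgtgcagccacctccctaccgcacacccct

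*Col4a6* (chrX:141165403-141474076, minus strand) and *Col4a5* (chrX:141475385-141689234, plus strand) also run away from each other, with starts 1309 bases apart on chromosome X. The 250 bases before the *Col4a6* start (chrX:141474077-141474326, printed on the minus strand) hold 1 GGGCGG, read on its reverse strand, and the 216 bases before the *Col4a5* start (chrX:141475169-141475384, plus strand) hold 1 CCAAT. *Col3a1* (chr1:45311538-45349706, plus strand) and *Col5a2* (chr1:45374321-45503282, minus strand) instead converge, with 24614 bases between their 3′ ends. The 250 bases before the *Col3a1* start (chr1:45311288-45311537, plus strand) hold 1 TATAAA and have 35.2% G and C. Capitals mark the motifs.

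Col4a6 upstream: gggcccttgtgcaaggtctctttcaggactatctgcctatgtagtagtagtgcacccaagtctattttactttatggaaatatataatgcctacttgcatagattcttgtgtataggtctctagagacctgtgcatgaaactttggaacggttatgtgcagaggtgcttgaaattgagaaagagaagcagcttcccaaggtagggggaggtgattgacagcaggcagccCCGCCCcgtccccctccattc

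Col4a5 upstream: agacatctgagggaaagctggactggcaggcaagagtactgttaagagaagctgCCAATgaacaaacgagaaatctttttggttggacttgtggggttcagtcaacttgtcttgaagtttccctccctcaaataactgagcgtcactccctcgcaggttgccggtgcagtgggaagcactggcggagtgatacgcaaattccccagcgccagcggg

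Col3a1 upstream: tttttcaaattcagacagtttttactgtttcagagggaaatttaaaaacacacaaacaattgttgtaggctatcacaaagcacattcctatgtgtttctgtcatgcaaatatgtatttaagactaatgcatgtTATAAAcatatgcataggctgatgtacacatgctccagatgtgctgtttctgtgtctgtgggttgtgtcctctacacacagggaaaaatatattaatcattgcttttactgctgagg

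The 300-base windows from 250 bases before to 50 bases after a RefSeq start covered 35 of the 43 members in 38 windows. GGGCGG, on either strand, was in 23 of them (60.5%) against 35.7% of all 32851 windows of the genome, CCAAT in 13 (34.2% against 37.4%) and TATAAA in 5 (13.2% against 13.6%). *Col4a1* (chr8:11198423-11312826, minus strand) and *Col4a2* (chr8:11312805-11449287, plus strand) overlap by 22 bases at their starts (chr8:11312805-11312826), and whether reads were counted by strand is not given in the sources used here. *Col6a6*, *Col6a5* and *Col6a4* lie in a row on the minus strand of chromosome 9, with 27917 and 28810 bases between them. *Col6a2* and *Col6a1* lie in a row on chromosome 10 with 85161 bases between them.

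Stroma was the main source of collagen transcripts. The stroma gate held 24.4% of all UMIs and 59.3% of the collagen UMIs (54.9%, 62.2% and 61.2% in sets 1, 2 and 3), whereas the granulosa gate held 42.4% of all UMIs and 6.78% of the collagen UMIs. Theca held 9.82% of the collagen UMIs, the endothelial gate 4.79%, the mural gate 2.91% and all cells outside the gates named here 12.7%. Per UMI, however, the mural gate was the richest, with 102 collagen UMIs per 10000, against 80.3 in stroma, 33.4 in endothelial cells, 32.5 in theca and 5.29 in granulosa. Contractile smooth muscle cells (524 cells) had 76.0, and myeloid cells (380 cells), immune cells not known for making most of these chains, had 5.15.

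Within each gate the single cells differed widely. The median stroma cell had 74.8, 69.3 and 59.7 collagen UMIs per 10000 in sets 1, 2 and 3, and the range from the 5th to the 95th percentile ran from 29.7 to 164 over all sets. Every stroma cell had a collagen UMI, while 12.6% of granulosa cells and 45.8% of myeloid cells had none. Mural cells had medians of 107, 81.6 and 78.9, endothelial cells 28.9, 25.5 and 37.9, theca cells 29.4, 23.6 and 27.1, and granulosa cells 3.74, 3.86 and 3.91. By these medians set 1 was the highest in the stroma, mural and theca gates and set 3 in the endothelial and granulosa gates. By summed UMIs per 10000, however, set 3 was the highest in theca (32.7, 30.5 and 34.4) and the lowest in granulosa (5.61, 5.34 and 4.96). Thinned to 3000 UMIs a cell, the median cell held UMIs of 8 members in stroma and in mural cells, 4 in theca, 3 in endothelial cells, 1 in granulosa and 0 in myeloid cells.

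**Figure D1:**
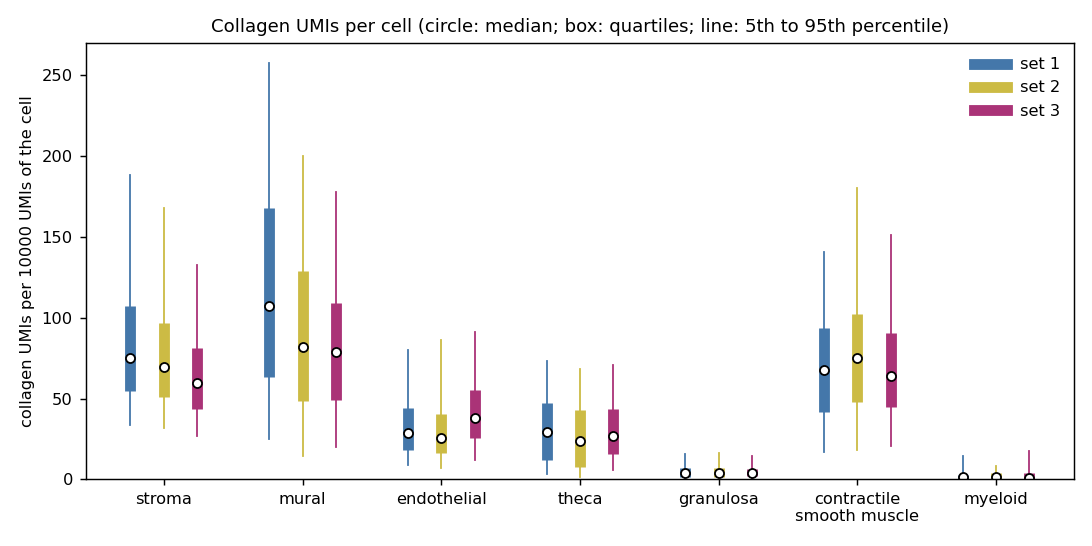
Collagen UMIs per 10000 UMIs of a cell (y axis) in 7 gates and 3 barcode sets (x axis), with the median, the quartiles and the 5th to 95th percentile of the cells. Stroma, mural and contractile smooth muscle cells lie highest, and the median of granulosa cells is between 3.74 and 3.91 in the 3 sets.

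A few members made up most of the family. *Col3a1* had 164640 UMIs (20.8% of the family), *Col1a2* 129463 (16.3%), *Col4a1* 121276 (15.3%), *Col1a1* 86314 (10.9%) and *Col4a2* 66859 (8.43%), and these 5 together held 71.7%. In all, 27 members had 1000 or more UMIs and are given below in every gate and set. Another 11 had 100 or more, 5 had fewer than 100, and these 16 together held 0.523% of the family. Over the 27 members, the median half-width of a level's counting interval was 5.59% of the level in stroma, 11.1% in granulosa, 17.7% in theca, 32.4% in mural cells and 39.2% in endothelial cells, and the widest were 44.5%, 119%, 277%, 277% and 208%.

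By structural class, the gates differed in the collagen UMIs they held. Fibrillar members took 61.3% of the collagen UMIs in stroma and type IV members 21.9%, whereas type IV took 53.7% in mural cells and 75.4% in endothelial cells. Multiplexins, the collagens of the basement membrane zone, took 14.0% in endothelial cells and 5.30% in mural cells. The granulosa shares over all sets (44.0% fibrillar and 28.1% type IV) lay near those of myeloid cells (50.8% and 26.4%). The type IV share was larger in set 3 than in set 1 in stroma (20.4, 16.3 and 27.8% in sets 1, 2 and 3), theca (17.3, 18.1 and 41.1%) and granulosa (22.7, 23.8 and 38.1%). The fibrillar share in set 3 was 47.5% in theca, against 60.4% in set 1, and 33.0% in granulosa, against 49.5%.

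**Figure D2:**
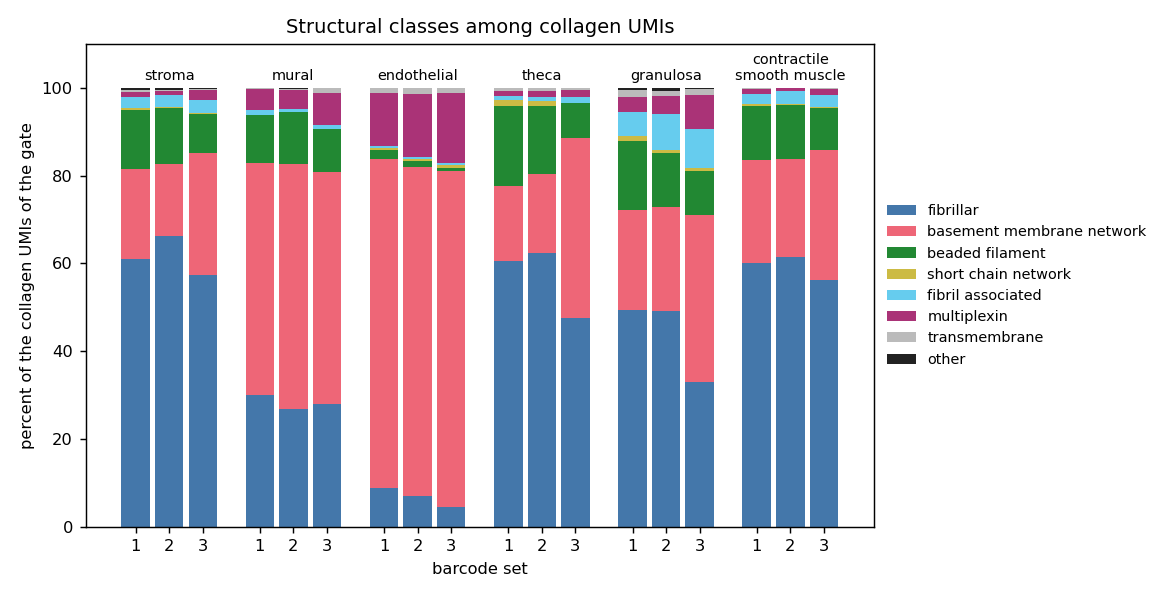
Percent of a gate's collagen UMIs (y axis) in each structural class, as stacked bars for 6 gates and 3 barcode sets (x axis). Fibrillar members fill most of the bars of stroma and contractile smooth muscle, and basement membrane members fill most of the endothelial bars; in theca the basement membrane share is 41.1% in set 3 against 17.3% in set 1.

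Among the fibrillar collagens, the chains of type I and type III were highest in stroma among the 5 gates. *Col1a1*, which encodes the chain that occurs in 2 copies in the type I trimer, was at 11.6, 13.6 and 9.23 in the stroma gate, 2.23, 1.5 and 3.02 in the mural gate, 0.266, 0.272 and 0.284 in the endothelial gate, 0.856, 0.879 and 0.917 in the theca gate and 0.164, 0.269 and 0.216 in the granulosa gate in sets 1, 2 and 3. Its level in stroma over all sets was 11.3 (11.2 to 11.4), 5.16 times the next of the 5 gates, while contractile smooth muscle had 13.3 (12.8 to 13.7). *Col1a2*, the partner chain, was at 19.4, 18.4 and 8.65 in the stroma gate, 9.26, 6.73 and 5.77 in the mural gate, 0.507, 0.482 and 0.380 in the endothelial gate, 8.15, 5.84 and 3.20 in the theca gate and 0.355, 0.327 and 0.204 in the granulosa gate. It was thus much higher relative to *Col1a1* in theca than in stroma. *Col3a1*, the chain of type III collagen of distensible tissues, was at 19.2, 16.4 and 16.8 in the stroma gate, 15.8, 10.8 and 10.7 in the mural gate, 0.668, 0.406 and 0.605 in the endothelial gate, 9.30, 9.69 and 9.0 in the theca gate and 0.433, 0.412 and 0.470 in the granulosa gate. Stroma, mural cells and theca all held it at a level above 8 in every set, with stroma at 1.42 times the mural level over all sets.

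Type V chains, which start and limit the growth of type I fibrils, were as high in mural cells as in stroma. *Col5a1* was at 2.23, 2.0 and 2.18 in the mural gate, 1.79, 1.71 and 1.65 in the stroma gate, 0.317, 0.265 and 0.304 in the theca gate, 0.0725, 0.0709 and 0.0838 in the granulosa gate and 0.0950, 0.0608 and 0.0323 in the endothelial gate. *Col5a2* was at 2.09, 1.59 and 1.53 in the mural gate, 1.86, 1.62 and 1.47 in the stroma gate, 0.597, 0.660 and 1.13 in the theca gate, 0.517, 0.537 and 0.385 in the endothelial gate and 0.153, 0.197 and 0.175 in the granulosa gate, and its mural level was 1.05 times that of stroma, so these neighbours in the order were not apart. *Col5a3*, a type V chain with 287 UMIs, had its highest level in mural cells at 0.723, 0.357 and 0.404, against 0.0234, 0.0170 and 0.0140 in stroma. The mural level was 26.9 times the stroma level over all sets.

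*Col11a1*, a fibril-regulating chain best known from cartilage, was close in granulosa and stroma in sets 1 and 2 and lower in granulosa in set 3. Its levels were 1.2, 1.41 and 0.749 in the stroma gate, 1.28, 1.38 and 0.353 in the granulosa gate, 0.251, 0.374 and 0.424 in the theca gate, 0.164, 0.208 and 0.125 in the mural gate and 0.0821, 0.104 and 0.0510 in the endothelial gate. Over all sets the stroma level was 1.09 (1.06 to 1.13) and the granulosa level 1.00 (0.979 to 1.03), and the gates changed place between sets, with granulosa above stroma in set 1 and below it in sets 2 and 3. *Col27a1*, a fibrillar chain of a separate branch, was at 0.252, 0.268 and 0.247 in the stroma gate, 0.306, 0.203 and 0.163 in the granulosa gate, 0.0895, 0.252 and 0.164 in the mural gate, 0.156, 0.0742 and 0.0671 in the theca gate and 0.0606, 0.0800 and 0.0360 in the endothelial gate, likewise with granulosa above stroma in set 1. *Col24a1*, of the same branch, had 349 UMIs and was highest in stroma at 0.0449, 0.0354 and 0.00428.

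**Figure D3:**
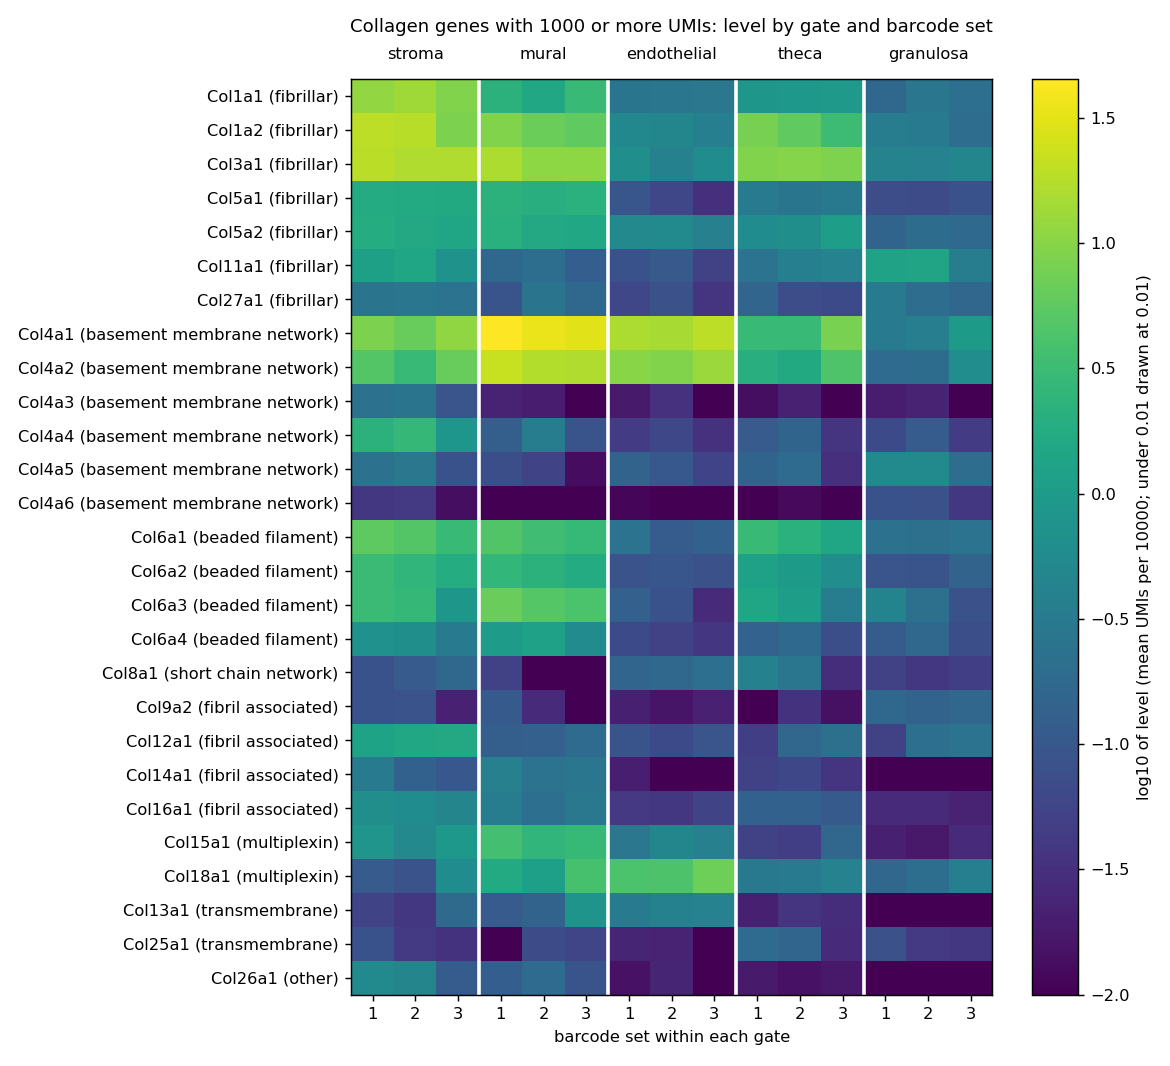
Levels (mean UMIs per 10000, as log10 with a floor of 0.01) of the 27 members with 1000 or more UMIs (rows) in 5 gates and 3 barcode sets (columns). *Col1a1* lies at 9.23 to 13.6 in the 3 stroma columns and at 0.164 to 0.269 in the 3 granulosa columns.

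Type IV collagen showed 3 pairs of genes with separate patterns. *Col4a1* and *Col4a2*, the chains of the basement membrane found in nearly all tissues, were highest in mural cells. *Col4a1* was at 45.2, 35.6 and 31.3 in the mural gate, 15.8, 15.2 and 19.8 in the endothelial gate, 8.49, 6.31 and 11.3 in the stroma gate, 3.02, 2.98 and 8.33 in the theca gate and 0.331, 0.371 and 0.994 in the granulosa gate. *Col4a2* was at 22.5, 17.1 and 16.8 in the mural gate, 10.1, 9.23 and 12.8 in the endothelial gate, 4.68, 3.02 and 6.38 in the stroma gate, 1.93, 1.68 and 4.45 in the theca gate and 0.187, 0.194 and 0.611 in the granulosa gate. In every set the order for both was mural, endothelial, stroma, theca and granulosa. Every gate but the mural one had its highest level of both genes in set 3, and the mural gate had it in set 1.

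*Col4a3* and *Col4a4*, which join *Col4a5* in specialised basement membranes such as that of the kidney glomerulus, were highest in stroma among the 5 gates and higher still in contractile smooth muscle, at 3.37, 4.71 and 1.63 for *Col4a4* and 0.575, 0.912 and 0.342 for *Col4a3*. *Col4a4* was at 2.22, 2.70 and 0.836 in the stroma gate, 0.127, 0.355 and 0.0892 in the mural gate, 0.112, 0.152 and 0.0353 in the theca gate, 0.0663, 0.116 and 0.0448 in the granulosa gate and 0.0446, 0.0626 and 0.0330 in the endothelial gate. *Col4a3*, across the 71 bases printed above, was at 0.234, 0.251 and 0.0927 in the stroma gate, 0.0184, 0.0328 and 0.00647 in the endothelial gate and 0.0191, 0.0229 and 0.00785 in the granulosa gate, and at 0.0225 or less in every set of the mural and theca gates. Both were lowest in set 3 in the stroma gate. *Col4a5* and *Col4a6*, the pair on chromosome X, were instead highest in granulosa. *Col4a5* was at 0.550, 0.554 and 0.202 in the granulosa gate, 0.241, 0.279 and 0.0821 in the stroma gate, 0.15, 0.187 and 0.0326 in the theca gate, 0.148, 0.100 and 0.0552 in the endothelial gate and 0.0750, 0.0557 and 0.0131 in the mural gate. *Col4a6* was at 0.0827, 0.0805 and 0.0387 in the granulosa gate and 0.0395, 0.0412 and 0.0136 in the stroma gate, with 0.0125 or less in every set of the other gates. In granulosa and in stroma, set 3 was the lowest for both genes.

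Type VI collagen forms beaded filaments that tie cells to the matrix around them, and its genes split between stroma and mural cells. *Col6a1* was at 5.57, 4.71 and 2.99 in the stroma gate, 4.53, 3.47 and 2.78 in the mural gate, 3.03, 2.14 and 1.41 in the theca gate, 0.236, 0.220 and 0.25 in the granulosa gate and 0.243, 0.117 and 0.136 in the endothelial gate. *Col6a2* was at 3.08, 2.57 and 1.85 in the stroma gate, 2.61, 2.24 and 1.80 in the mural gate, 1.22, 0.970 and 0.624 in the theca gate, 0.0907, 0.0890 and 0.148 in the granulosa gate and 0.0863, 0.0959 and 0.0820 in the endothelial gate. For both, stroma and mural cells were close, with stroma 1.21 and 1.11 times the mural level over all sets. *Col6a3*, the long chain that completes the trimer, was 2.44 times higher in mural cells than in stroma. Its levels were 6.68, 4.92 and 4.18 in the mural gate, 3.08, 2.74 and 0.862 in the stroma gate, 1.45, 1.10 and 0.352 in the theca gate, 0.449, 0.222 and 0.0802 in the granulosa gate and 0.131, 0.0824 and 0.0272 in the endothelial gate, so set 3 was lowest in each of these gates. *Col6a4*, a chain that can stand in for *Col6a3*, was at 1.05, 1.22 and 0.580 in the mural gate, 0.697, 0.659 and 0.319 in the stroma gate, 0.141, 0.179 and 0.0744 in the theca gate, 0.116, 0.171 and 0.0761 in the granulosa gate and 0.0657, 0.0503 and 0.0384 in the endothelial gate. The related *Col6a6* (438 UMIs) and *Col6a5* (247 UMIs) were highest in stroma, at 0.0733, 0.0793 and 0.0364 and 0.0148, 0.0363 and 0.0166, and neither had a UMI in mural cells, where a count of 0, taken to allow 3 UMIs in the gate, allows a level of up to 0.0133.

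The short-chain network collagens went to different gates. *Col8a1*, known from vessel walls and the corneal membrane, was at 0.406, 0.275 and 0.0300 in the theca gate, 0.155, 0.167 and 0.216 in the endothelial gate, 0.0822, 0.111 and 0.167 in the stroma gate, 0.0518, 0.0391 and 0.0482 in the granulosa gate and 0.0522, 0.00544 and 0.00844 in the mural gate. Theca was thus the highest gate in sets 1 and 2 and stood above the mural gate alone in set 3. *Col8a2* (908 UMIs), its partner chain, was highest in stroma at 0.341, 0.151 and 0.0181, and none of the other 4 gates passed 0.0158 in a set.

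Of the fibril-associated collagens, which coat the surface of fibrils, *Col12a1* was a gene of the stroma. It was at 1.33, 1.54 and 1.60 in the stroma gate, 0.0525, 0.219 and 0.25 in the granulosa gate, 0.128, 0.134 and 0.188 in the mural gate, 0.0474, 0.162 and 0.224 in the theca gate and 0.0890, 0.0662 and 0.0926 in the endothelial gate. Its stroma level was 8.53 times the next of the 5 gates, though contractile smooth muscle had 1.39 over all sets against 1.5, and in theca and granulosa set 1 was far below sets 2 and 3. *Col14a1*, another coat protein of type I fibrils, was at 0.397, 0.245 and 0.275 in the mural gate, 0.328, 0.137 and 0.0968 in the stroma gate, 0.0501, 0.0610 and 0.0350 in the theca gate, 0.00745, 0.00390 and 0.00590 in the granulosa gate and 0.0201, 0.00353 and 0.00379 in the endothelial gate. It was also at 0.349, 0.259 and 0.0738 in myeloid cells. *Col16a1* was at 0.633, 0.600 and 0.455 in the stroma gate, 0.351, 0.218 and 0.294 in the mural gate, 0.137, 0.139 and 0.110 in the theca gate, 0.0403, 0.0391 and 0.0562 in the endothelial gate and 0.0284, 0.0272 and 0.0229 in the granulosa gate. *Col9a2*, a chain of the type IX collagen of cartilage, was highest in granulosa, at 0.172, 0.144 and 0.163 in the granulosa gate, 0.0841, 0.0851 and 0.0216 in the stroma gate, 0.110, 0.0284 and 0.0101 in the mural gate, 0.0208, 0.0160 and 0.0214 in the endothelial gate and 0.00940, 0.0340 and 0.0146 in the theca gate. Among members below 1000 UMIs, *Col20a1* (291 UMIs) was highest in granulosa at 0.0160 with theca at 0.0145, and *Col22a1* (108 UMIs) in theca at 0.0293.

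The multiplexins lie in the basement membrane zone, and their highest level among the 5 gates was in endothelial or mural cells. They were not confined to these gates, since stroma held 5029 of the 7822 *Col15a1* UMIs. *Col18a1*, whose C-terminal fragment is endostatin, was highest in endothelial cells at 5.04 (4.86 to 5.23). It was at 4.17, 4.37 and 7.01 in the endothelial gate, 1.73, 1.17 and 3.91 in the mural gate, 0.303, 0.325 and 0.411 in the theca gate, 0.163, 0.209 and 0.381 in the granulosa gate and 0.113, 0.0858 and 0.596 in the stroma gate, with set 3 the highest in every gate. *Col15a1* was highest in mural cells at 2.94 (2.68 to 3.20), 3.89 times the next gate. Its levels were 3.60, 2.51 and 2.82 in the mural gate, 0.813, 0.523 and 0.888 in the stroma gate, 0.283, 0.478 and 0.388 in the endothelial gate, 0.0509, 0.0482 and 0.160 in the theca gate and 0.0207, 0.0179 and 0.0277 in the granulosa gate.

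The transmembrane collagens stay in the cell surface and were low throughout. *Col13a1*, found at cell adhesion sites, was at 0.315, 0.398 and 0.418 in the endothelial gate, 0.111, 0.148 and 0.779 in the mural gate, 0.0565, 0.0393 and 0.184 in the stroma gate, 0.0209, 0.0363 and 0.0300 in the theca gate and 0.000526, 0.00281 and 0.00365 in the granulosa gate. Over all sets the endothelial level was 1.14 times the mural level, and in set 3 the mural level was the higher. *Col25a1*, first known from amyloid plaques of the brain, was at 0.188, 0.154 and 0.0281 in the theca gate, 0.0806, 0.0421 and 0.0389 in the granulosa gate, 0.0845, 0.0419 and 0.0348 in the stroma gate, 0, 0.0684 and 0.0585 in the mural gate and 0.0242, 0.0223 and 0 in the endothelial gate, where mural set 1 and endothelial set 3 had no UMI and by the rule of 3 UMIs allow up to 0.0397 and 0.0108. *Col23a1* (626 UMIs) was highest in stroma at 0.114, 0.0482 and 0.0180, and *Col17a1* (153 UMIs), a collagen of epithelial attachment, in theca at 0.00360, 0.0157 and 0.0614. Of the members outside these classes, *Col26a1*, first described from testis and ovary, was at 0.553, 0.457 and 0.114 in the stroma gate, 0.124, 0.191 and 0.0896 in the mural gate, 0.0187, 0.0152 and 0.0179 in the theca gate, 0.0150, 0.0240 and 0 in the endothelial gate and 0.00599, 0.00865 and 0.00263 in the granulosa gate, with no UMI in endothelial set 3, which again allows up to 0.0108. *Col7a1* (279 UMIs), the anchoring fibril collagen of skin, was highest in stroma at 0.0223, and *Col28a1* (169 UMIs) in mural cells at 0.0338. That *Col28a1* level rested on 10 mural UMIs, while granulosa was at 0.0148 on 141 UMIs.

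The 5 members with fewer than 100 UMIs were *Col10a1* (79), *Col11a2* (78), *Col19a1* (56), *Col9a3* (44) and *Col9a1* (33), most of them known from cartilage. Their highest level in any gate over all sets lay between 0.00252 and 0.0445. Counting every member, the highest of the 5 gates was stroma for 18, mural cells for 14, granulosa for 5, theca for 4 and endothelial cells for 2. For members with 100 or more UMIs the numbers were 18, 10, 4, 4 and 2 in the same order. Below that, *Col9a3* was highest in mural cells on 1 UMI in that gate. The highest gate was the same in each of the 3 sets for 27 of 43 members, and for 21 of the 27 with 1000 or more UMIs.

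Free RNA in the droplets can put a UMI into a cell that does not make it, so the granulosa levels were set beside those of myeloid cells, which are not known for making most of these chains but did hold *Col14a1*. Over all sets, the most abundant stromal chains were lower in granulosa than in myeloid cells, with *Col3a1* at 0.438 against 0.747, *Col1a2* at 0.295 against 0.482 and *Col1a1* at 0.217 against 0.341, and their granulosa values cannot be told apart from free RNA. By set the order was not fixed, since *Col1a1* was at 0.164, 0.269 and 0.216 in granulosa and 0.146, 0.408 and 0.405 in myeloid cells, and *Col3a1* at 0.433, 0.412 and 0.470 and 0.459, 0.384 and 1.26. In contrast, *Col11a1* was at 1.00 against 0.0989, *Col4a5* at 0.435 against 0.0302 and *Col27a1* at 0.223 against 0.0219. *Col4a6* was at 0.0672 against no UMI in 380 myeloid cells, which by the same rule of 3 UMIs allows up to 0.0155. Of the 27 members with 1000 or more UMIs, 11 were at 3 or more times the myeloid level in granulosa, 10 in endothelial cells, 19 in theca, 21 in mural cells and 25 in stroma. Median depth was 4354.5 UMIs in myeloid cells and 6604 in granulosa.

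Shares of cells with a UMI were computed in cells thinned to 3000 UMIs, leaving out shallower cells, which numbered 798 in stroma, 105 in mural, 318 in endothelial, 63 in theca, 650 in granulosa and 120 in myeloid cells (kept were 8068 stroma, 334 mural, 1323 endothelial, 1956 theca, 12419 granulosa and 260 myeloid cells). *Col3a1* was detected in 94.9% of stroma cells, 10.4% of granulosa cells and 13.9% of myeloid cells, so the share in granulosa was not above that in myeloid cells. *Col11a1* was detected in 22.6% of stroma, 17.8% of granulosa and 2.69% of myeloid cells. *Col4a5* was detected in 11.2% of granulosa and 0.769% of myeloid cells. The shares for *Col4a1* were 97.3% of mural, 93.4% of endothelial, 79.25% of stroma, 55.5% of theca, 12.5% of granulosa and 10.0% of myeloid cells. For *Col18a1* they were 60.1% of endothelial, 41.0% of mural, 7.98% of theca, 6.89% of stroma, 5.69% of granulosa and 0.769% of myeloid cells. Without thinning, these shares were 97.7% for *Col3a1* in stroma, 27.5% for *Col11a1* in granulosa, 21.9% for *Col4a5* in granulosa, 98.0% for *Col4a1* in mural cells and 73.7% for *Col18a1* in endothelial cells.

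Many members differed between sets 1 and 3 in stroma. With 30 or more UMIs over sets 1 and 3 in that gate, 35 members were compared: 20 were lower in set 3 (57.1%), where 30.7% of all 13351 genes compared were lower, and 3 were higher, where 16.2% of all genes were. The median log2 ratio was −0.73 over the members and −0.20 over all genes. In set 2 against set 1, 6 of 35 members were lower (background 17.9%) and 1 was higher (background 6.43%), with medians of −0.10 over the members and −0.18 over the 13187 genes compared, so there the share of lower members was near the background. On means of natural log values the split in set 3 was 17 lower and 6 higher. By class, the members lower in set 3 were 4 of 9 fibrillar, 4 of 6 type IV, 5 of 6 type VI, 3 of 5 fibril-associated, 2 of 3 transmembrane, 1 of 2 short-chain and 1 of 2 other members, and neither of the 2 multiplexins.

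The smallest stroma ratios of set 3 to set 1 belonged to *Col8a2* at 0.0532 (0.0339 to 0.0801), *Col24a1* at 0.0953 (0.0463 to 0.180) and *Col23a1* at 0.158 (0.109 to 0.223). Among abundant members, *Col1a2* was at 0.445 (0.437 to 0.454), *Col6a3* at 0.280 (0.264 to 0.296), *Col6a1* at 0.537 (0.519 to 0.556) and *Col4a4* at 0.377 (0.355 to 0.399). Those members were lower in set 3 in theca and stroma alike, whereas *Col1a1* had a stroma ratio of 0.794 (0.777 to 0.812) and *Col3a1* of 0.875 (0.861 to 0.890), short of 1.5 fold. The 3 higher members were *Col18a1* at 5.26 (4.50 to 6.18), *Col13a1* at 3.25 (2.52 to 4.24) and *Col8a1* at 2.04 (1.67 to 2.50). Between sets 2 and 1, the smallest ratios were *Col14a1* at 0.418 (0.357 to 0.488), *Col23a1* at 0.423 (0.311 to 0.570) and *Col8a2* at 0.445 (0.375 to 0.527), and the largest *Col6a5* at 2.45 (1.40 to 4.37), *Col8a1* at 1.36 (1.08 to 1.71) and *Col4a4* at 1.21 (1.16 to 1.28).

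**Figure D4:**
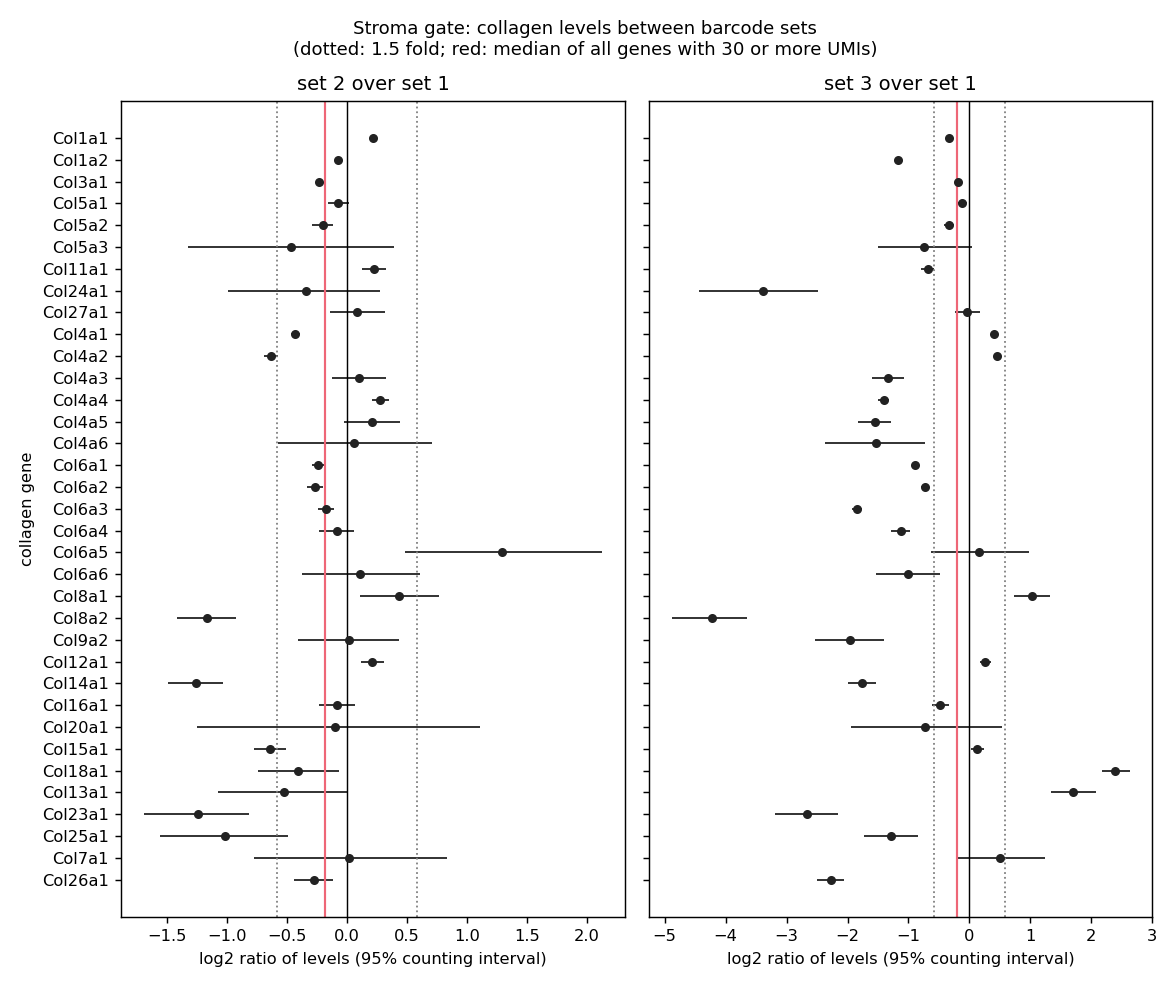
Log2 ratio of the level in set 2 to set 1 and in set 3 to set 1 (x axes of the left and right panels) for 35 members in the stroma gate (y axis), with 95% counting intervals as bars, dotted lines at 1.5 fold and a red line at the median of all genes. On the right, 20 members lie left of the lower dotted line and 3 (*Col18a1*, *Col13a1* and *Col8a1*) lie right of the upper.

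The stroma markers themselves differed between these sets. Their summed level had a median of 49.4, 46.8 and 20.6 UMIs per 10000 in the stroma cells of sets 1, 2 and 3, with 4 of 8 markers lower in set 3 than in set 1 (*Dcn* at 21.3, 18.1 and 8.90, *Lum* at 10.1, 7.96 and 3.45, *Ogn* at 12.4, 12.8 and 2.98, *Tcf21* at 4.19, 4.08 and 1.77) and 1 higher (*Dpt*, at 0.0280, 0.0288 and 0.0819). Median depth was 4929.5, 5858 and 6870 UMIs. Granulosa markers in the stroma gate had median sums of 3.77, 5.46 and 1.63, and the endothelial list was at 0 in every set. Of 8 genes known to respond to cell dissociation, 5 were lower in set 2 and none passed 1.5 fold in set 3. Their part in the result was not tested.

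The genes of each pair that shares a start region were set side by side, without a test of their difference, first by the ratio of set 3 to set 1 in stroma. *Col4a3* was at 0.397 (0.331 to 0.476) and *Col4a4*, on the other side of the 71 bases, was at 0.377 as given above. *Col4a5* was at 0.341 (0.283 to 0.412) and *Col4a6* at 0.345 (0.193 to 0.601). *Col4a1* was at 1.33 (1.30 to 1.36) and *Col4a2* at 1.36 (1.33 to 1.41). The intervals of the genes of a pair overlapped in each of the 3 pairs. In set 2 against set 1 this held for *Col4a3* and *Col4a4* (1.07 (0.918 to 1.26) and 1.21 (1.16 to 1.28)) and for *Col4a5* and *Col4a6* (1.16 (0.987 to 1.36) and 1.04 (0.672 to 1.64)), but not for *Col4a1* and *Col4a2* (0.743 (0.723 to 0.763) and 0.645 (0.621 to 0.671)). The converging *Col3a1* and *Col5a2*, which share no start, were at 0.875 (0.861 to 0.890) and 0.792 (0.750 to 0.837) in set 3, and closer in set 2, at 0.854 (0.838 to 0.870) and 0.871 (0.820 to 0.924). In theca, *Col4a1* and *Col4a2* in set 3 were at 2.76 (2.64 to 2.89) and 2.31 (2.17 to 2.46), with intervals that did not overlap. In granulosa, *Col4a3* was at 0.412 (0.232 to 0.704) and *Col4a4* at 0.676 (0.528 to 0.863), of which the first was past 1.5 fold and the second was not, while the intervals overlapped.

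In mural cells fewer members could be compared. Of 19, 3 were lower in set 2 (background 13.8%) and 2 higher (background 10.7%), and in set 3, 5 were lower (background 20.9%) and 2 higher (background 14.3%). Median log2 ratios were −0.39 in set 2 and −0.45 in set 3 over the members, against −0.07 over 6638 and −0.08 over 6280 genes. The largest ratio was that of *Col13a1* in set 3 at 7.04 (2.76 to 23.4), followed by *Col18a1* at 2.27 (1.73 to 3.0) and *Col12a1* at 1.48, and the smallest were *Col6a4* at 0.553 (0.318 to 0.943), *Col5a3* at 0.559 (0.316 to 0.993) and *Col6a1* at 0.614 (0.494 to 0.764). In set 2 the largest were *Col27a1* at 2.81 (1.03 to 8.69), *Col4a4* at 2.79 (1.31 to 6.36) and *Col11a1* at 1.27, and the smallest *Col5a3* at 0.494 (0.263 to 0.915), *Col14a1* at 0.618 (0.336 to 1.10) and *Col16a1* at 0.623 (0.280 to 1.32). Scored on summed UMIs in place of cell means, 9 members were lower and 2 higher in set 2, and on the mean of log values 6 and 2, but the split was 1 lower and 4 higher with gates taken from a vote of cell clusters and 1 and 2 at 2 fold. With the cluster vote the direction in set 3 turned as well, with 7 higher, 4 lower and a member median of 0.26, and at 2 fold 2 were higher and 0 lower. The mural markers had median sums of 52.0, 60.0 and 38.2, with 4 of 9 lower in set 3, and 4 of 8 dissociation genes were lower in set 2 and in set 3. In the mural gate the endothelial list had median sums of 2.57, 3.61 and 3.97 and the granulosa list 4.76, 6.51 and 1.885. The theca list there was at 3.73, 6.23 and 2.82, and the stroma list at 2.52, 2.09 and 1.88. The part of these genes in the result was not tested.

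Endothelial cells had lower *Col6a1*, *Col6a3* and *Col6a4* and higher *Col18a1* in set 3 than in set 1, while *Col6a2* was at 0.949 (0.462 to 1.85). *Col6a1* was at 0.558 (0.330 to 0.922), and *Col6a4* at 0.585 (0.216 to 1.54) on 12 UMIs against 20. Of 20 members compared, 6 were lower (background 22.3%) and 1 was higher (background 11.6%), with a median log2 ratio of −0.11 over the members and −0.13 over 10314 genes. This direction was not stable: with the cluster vote 11 were lower and 1 higher with a median of −0.61, and without cells that held 3 or more markers of another gate 1 was lower and 2 were higher with a median of 0.18. Thinned cells gave 2 lower and 2 higher of 11 with a median of 0.21, and a minimum of 100 UMIs gave 1 lower and 1 higher of 11 with a median of 0.33. *Col18a1* was at 1.68 (1.53 to 1.85), *Col16a1* at 1.40 and *Col8a1* at 1.40, and the smallest were *Col6a3* at 0.208 (0.0851 to 0.457), *Col5a1* at 0.340 (0.111 to 0.885) and *Col4a5* at 0.374 (0.174 to 0.738). In set 2, 4 of 21 members were lower (background 10.2%) and 1 was higher (background 6.34%), with medians of −0.04 and, over 10891 genes, −0.08. The smallest were *Col6a1* at 0.481 (0.304 to 0.754), *Col3a1* at 0.608 (0.475 to 0.776) and *Col6a3* at 0.630 (0.363 to 1.10), and the largest *Col15a1* at 1.69 (1.17 to 2.46), *Col4a4* at 1.40 and *Col27a1* at 1.32. With summed UMIs the split in set 2 was 6 lower and 0 higher, and with log means 5 and 0. The levels of *Col3a1* and *Col6a3* in this gate over all sets, 0.535 and 0.0809, were below those of myeloid cells, 0.747 and 0.0994. *Col6a1* was at 0.158 against 0.117 and *Col6a4* at 0.0514 against 0.0344. In sets 1 and 3, *Col6a1* was at 0.169 and 0.0907 in myeloid cells, against 0.243 and 0.136 in endothelial cells. *Col6a4* was at 0.0820 and 0.0144 in myeloid cells, on 4 and 2 UMIs, against 0.0657 and 0.0384. *Col6a3* was at 0.144 and 0.141 in myeloid cells, against 0.131 and 0.0272. The part of free RNA in the endothelial ratios was not tested. The endothelial markers had median sums of 66.9, 65.2 and 66.4, and of the dissociation genes 3 of 8 were lower and 1 higher in set 3.

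In theca, *Col4a1* and *Col4a2* were higher in set 3, and *Col4a4*, *Col4a5* and the type VI chains *Col6a1* to *Col6a4* were lower. Of 27 members compared, 7 were higher (background 16.7%) and 12 lower (background 29%), and the median log2 ratio was −0.32 over the members and −0.15 over 12081 genes. With thinned cells the member median was −0.91, against −0.12 over all genes, and it lay above that of all genes without cells that held markers of another gate (−0.01 against −0.11) and with summed UMIs (−0.07 against −0.14). *Col4a1* was at 2.76 (2.64 to 2.89) and *Col4a2* at 2.31 (2.17 to 2.46), *Col5a2* at 1.89 (1.68 to 2.14) and *Col11a1* at 1.69 (1.37 to 2.08). The 3 largest ratios were *Col17a1* at 17.0 (6.24 to 60.0), *Col12a1* at 4.73 (3.28 to 6.84) and *Col15a1* at 3.14 (2.07 to 4.76). The 3 smallest were *Col8a1* at 0.0740 (0.0427 to 0.120), *Col25a1* at 0.15 (0.0716 to 0.278) and *Col4a5* at 0.218 (0.0866 to 0.459), and *Col6a3*, *Col1a2*, *Col6a1* and *Col6a2* were at 0.242, 0.393, 0.466 and 0.514.

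In set 2 against set 1, 3 of 29 theca members were lower, where 43.7% of all 12082 genes were, and 4 were higher, where 11.8% were. The median was 0.02 over the members and −0.47 over all genes. *Col12a1* was the largest at 3.41 (2.03 to 5.6), followed by *Col20a1* at 1.86 (0.775 to 4.33) and *Col13a1* at 1.74 (0.889 to 3.33), and *Col22a1* (0.251 (0.0998 to 0.547)), *Col27a1* (0.476 (0.332 to 0.669)) and *Col23a1* (0.549 (0.206 to 1.28)) were the smallest. With the 50 most abundant genes left out of each cell's total, 6 were higher and 3 lower, with log means 4 and 5, and with gates from the cluster vote 7 and 3. Of the 8 theca markers, 4 were lower and 1 higher in set 3 than in set 1 (*Cyp17a1* at 47.3, 47.5 and 19.7), and 2 lower and 1 higher in set 2. Of the 8 dissociation genes, 3 were lower in set 3, and 2 were higher and 1 lower in set 2. Granulosa markers in the theca gate had median sums of 10.7, 16.1 and 14.0 (means of 16.5, 38.3 and 18.9). Stroma markers in the theca gate had median sums of 2.79, 2.33 and 1.35. The part of these marker and dissociation genes in the result was not tested.

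Granulosa cells had higher *Col4a1* and *Col4a2* in set 3, with lower *Col4a3*, *Col4a5*, *Col4a6* and *Col11a1*. Of 32 members compared, 7 were higher (background 16.8%) and 12 lower (background 25.9%), with medians of −0.09 over the members and −0.12 over 14281 genes. These counts include members near or below the myeloid level, such as *Col1a2*, lower at 0.574. Over all sets, 11 of the 27 members with 1000 or more UMIs were at 3 or more times the myeloid level in granulosa. With the cluster vote 12 were higher and 13 lower, and without cells that held 3 or more markers of another gate 7 and 7. The second setting left out 10249 of the 13069 granulosa cells. Theca markers such as *Hsd3b1* (20.4) and *Fdx1* (17.7) were high in the granulosa gate as a whole. Whether the cells left out were mixed cells was not tested. With summed UMIs 6 were higher and 14 lower, and the medians were −0.39 over the members and −0.13 over all genes. *Col4a1* was at 3.0 (2.75 to 3.28) and *Col4a2* at 3.26 (2.92 to 3.65), whereas *Col4a5* was at 0.367 (0.328 to 0.411) and *Col4a6* at 0.468 (0.365 to 0.597). The 3 largest were *Col7a1* at 18.4 (5.27 to 117), *Col17a1* at 8.24 (2.06 to 74.4) and *Col12a1* at 4.76 (3.93 to 5.81), and the 3 smallest *Col28a1* at 0.131 (0.0536 to 0.298), *Col6a3* at 0.179 (0.153 to 0.207) and *Col11a1* at 0.277 (0.255 to 0.300). The *Col4a1* level in myeloid cells was 0.347, 0.238 and 0.679 in the 3 sets, against 0.331, 0.371 and 0.994 in granulosa. *Col4a2* was at 0.232, 0.297 and 0.495 in myeloid cells, against 0.187, 0.194 and 0.611 in granulosa, so in sets 1 and 2 it was below the myeloid level.

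In set 2, 4 of 30 members were higher in granulosa (background 12.2%) and 4 lower, where 40.3% of all 14262 genes were lower. The higher members include *Col1a1* at 1.635 (1.414 to 1.89), whose granulosa level over all sets was below that of myeloid cells. The median was −0.03 over the members and −0.43 over all genes. *Col12a1* was again the largest at 4.17 (3.43 to 5.10), followed by *Col20a1* at 2.96 (1.77 to 5.17) and *Col4a4* at 1.75 (1.43 to 2.14), and the smallest were *Col6a3* at 0.493 (0.441 to 0.551), *Col25a1* at 0.522 (0.411 to 0.662) and *Col14a1* at 0.523 (0.214 to 1.23). With the 50 most abundant genes left out of the totals, 6 were higher and 3 lower. Gates from the cluster vote gave 9 higher and 5 lower of 34. Leaving out cells that held 3 or more markers of another gate gave 6 higher and 1 lower of 20. The member median turned positive with gates from the cluster vote (0.33) and without cells that held 3 or more markers of another gate (0.30). The granulosa markers had median sums of 130, 139 and 55.0, with 7 of 10 lower and 2 higher in set 3 (*Inhba* at 32.2, 34.7 and 2.42), and 5 of 8 dissociation genes were higher in set 2, with 3 higher and 1 lower in set 3. Theca markers in the granulosa gate had median sums of 30.2, 44.2 and 25.9. Their part in the result was not tested. Sets 2 and 3 were both compared with set 1, so the comparisons of a gate share its cells.

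Chains that assemble in 1 trimer were compared by the ratio of their summed UMIs within a gate and set. Cells were not scaled for this ratio, so deeper cells weigh more, and the ratio of the mean levels can differ. In endothelial set 3, for example, *Col6a1* to *Col6a3* was 3.18 by UMIs, while the levels were 0.136 and 0.0272. *Col4a1* to *Col4a2* stayed between 1.59 and 2.10 in every gate and set. *Col1a1* to *Col1a2* did not: it was 0.585, 0.738 and 1.03 in stroma in sets 1, 2 and 3, 0.469, 0.768 and 1.06 in granulosa, 0.537, 0.615 and 0.901 in endothelial cells, 0.354, 0.280 and 0.579 in mural cells and 0.117, 0.171 and 0.284 in theca. Set 3 was the highest in all 5 gates, and theca the lowest gate in all 3 sets. Over all sets, the granulosa and endothelial levels of both genes were below those of myeloid cells. In stroma the intervals of sets 1 and 3, 0.585 (0.575 to 0.596) and 1.03 (1.01 to 1.04), lay far apart, though both cover counting error only. Theca in set 1 was at 0.117 (0.110 to 0.124).

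In the type VI trimer, *Col6a1* to *Col6a2* was 1.72, 1.79 and 1.57 in stroma, 1.62, 1.51 and 1.48 in mural cells, 2.43, 2.14 and 2.24 in theca, 2.43, 2.30 and 1.78 in granulosa and 2.29, 1.55 and 1.17 in endothelial cells. *Col6a1* to *Col6a3* was 1.83, 1.82 and 3.35 in stroma, 2.13, 2.14 and 3.99 in theca, 0.624, 0.975 and 2.82 in granulosa and 0.648, 0.788 and 0.703 in mural cells, and in endothelial cells 2.02, 1.48 and 3.18, so set 3 was the highest in these gates other than the mural one. *Col5a1* to *Col5a2* was 1.03, 1.05 and 1.08 in stroma, 0.933, 1.18 and 1.28 in mural cells, 0.519, 0.405 and 0.260 in theca, 0.548, 0.393 and 0.508 in granulosa and 0.212, 0.108 and 0.0727 in endothelial cells. *Col8a1* to *Col8a2* had the widest range in stroma, 0.355, 0.915 and 11.3. *Col4a3* to *Col4a4*, across their shared start region, was 0.114, 0.0952 and 0.110 in stroma and 0.281, 0.216 and 0.156 in granulosa, and in endothelial cells 0.195 (0.0790 to 0.422) in set 1 and 0.438 (0.249 to 0.745) in set 2. *Col4a5* to *Col4a6* was 7.19 in stroma and 6.09 in granulosa over all sets. *Col3a1* to *Col5a2*, the converging neighbours, was 10.8, 10.6 and 11.4 in stroma and 15.4, 14.4 and 8.30 in theca.

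**Figure D5:**
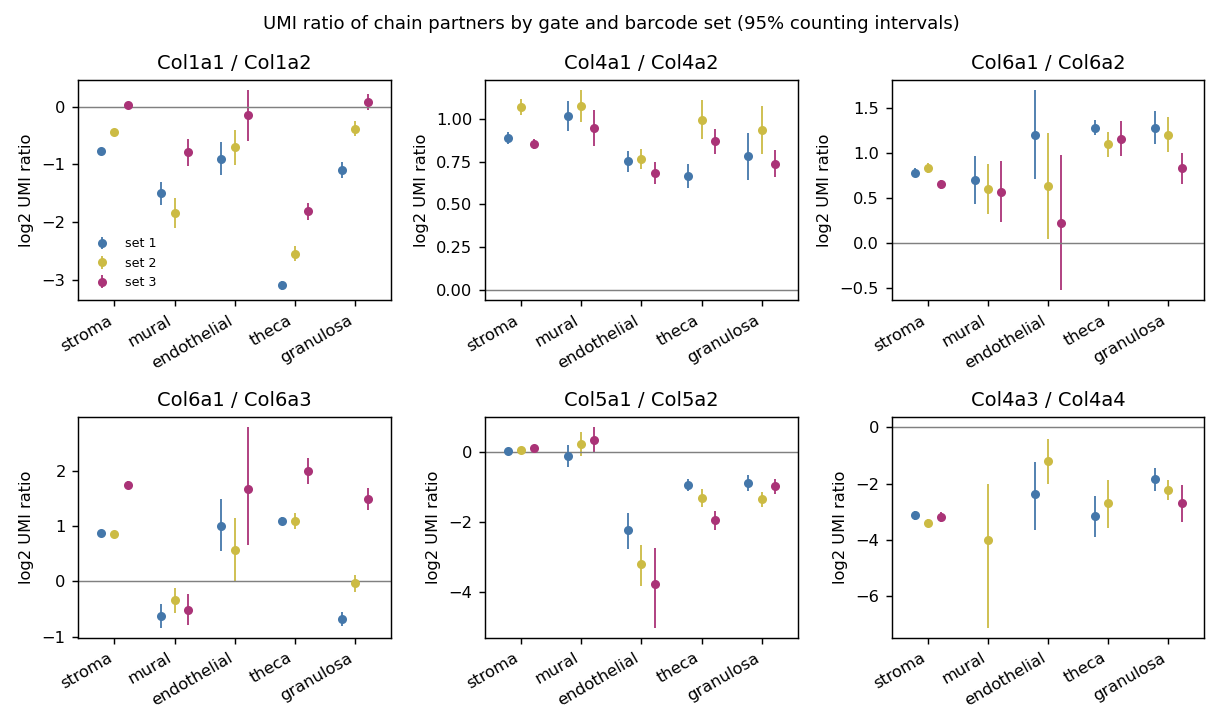
Log2 ratio of the UMIs of 2 chains (y axis) by gate and barcode set (x axis), 1 panel for each of 6 pairs, with 95% counting intervals. Before the log, the ratio of *Col4a1* to *Col4a2* lies between 1.59 and 2.10 everywhere, and *Col1a1* to *Col1a2* is highest in set 3 and lowest in theca.

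Within stroma, cells chosen by genes other than collagens differed in their collagens. Cells with 2 or more of *Mfap5*, *Clec3b*, *Pi16*, *Dpp4* and *Cd55* (1229 cells, median 7271 UMIs against 5824 in the rest) had *Col11a1* at 2.46, 2.17 and 1.58 in sets 1, 2 and 3, against 1.11, 1.24 and 0.593 in the rest. They also had more *Col1a1*, at 18.0, 18.2 and 12.9 against 11.1, 12.5 and 8.55, and less *Col18a1*, at 0.101, 0.0825 and 0.178 against 0.114, 0.0866 and 0.675. Cells with both *Wnt4* and *Frem1* (989 cells, median 6348 UMIs) had *Col12a1* at 2.35, 2.16 and 2.25 against 1.2, 1.45 and 1.53, and *Col9a2* at 0.194, 0.149 and 0.0118 against 0.0697, 0.0750 and 0.0226.

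Cells with both *Lamc3* and *Adcy7* (685 cells, median 8578 UMIs) stood apart by basement membrane and fibril-coat genes. *Col4a1* was at 17.5, 13.6 and 17.2 against 7.17, 5.72 and 11.1 in the rest of stroma, *Col15a1* at 1.81, 1.92 and 1.91 against 0.668, 0.410 and 0.849 and *Col14a1* at 0.874, 0.422 and 0.262 against 0.249, 0.114 and 0.0905. *Col12a1* was the reverse, at 0.268, 0.580 and 0.703 against 1.49, 1.62 and 1.63. These cells numbered 361, 200 and 124 in sets 1, 2 and 3, or 12.7%, 7.49% and 3.70% of the stroma gate. The cells of a subset differed from the rest in depth and are not replicates, so these are descriptions.

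Within granulosa, cells with 3 or more of *Itih5*, *Cald1*, *Pik3ip1* and *Ghr*, a list taken for atretic follicles (1823 cells, median 7286 UMIs), had 8.92 collagen UMIs per 10000 against 4.57 in the rest. *Col11a1* was at 3.32, 3.36 and 1.5 in sets 1, 2 and 3, against 0.769, 0.988 and 0.284, and *Col6a3* at 0.960, 0.497 and 0.225 against 0.322, 0.168 and 0.0714. Cells with 3 or more of *Igfbp5*, *Gatm*, *Kctd14* and *Slc18a2*, a list for preantral follicles (795 cells, median 7897 UMIs), had little *Col11a1* (0.396, 0.284 and 0.123) but *Col18a1* at 1.56, 1.70 and 1.40 against 0.0920, 0.125 and 0.292 and *Col9a2* at 0.699, 0.579 and 0.347 against 0.145, 0.119 and 0.147. Cells with *Lhcgr* (2670 cells), the receptor of hCG, had 4.65 collagen UMIs per 10000 against 5.48, and cells with 2 or more of *Mki67*, *Top2a* and *Cenpf* (1940 cells, in division, median 11800 UMIs) had 4.33 against 5.61. Cells with 2 or more of the cumulus genes *Ptx3*, *Tnfaip6* and *Has2* numbered 482 in set 2, 401 in set 3 and 0 of 4225 in set 1. That count of 0 allows up to 0.0710% of cells with captured UMIs of 2 or more of these genes, whether or not other cells expressed them. It sets no limit on cells with UMIs of only 1 of them. The cells so chosen in sets 2 and 3 had 4.49 collagen UMIs per 10000.

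The enzymes and chaperones that fold and modify collagen chains were compared over the same sets. Of 21 such genes in stroma, 6 were lower and 1 was higher in set 3 than in set 1, where 30.7% and 16.2% of all genes were, with a median log2 ratio of 0.07 against −0.20 over all genes, and in set 2, 1 was lower. *Serpinh1*, the collagen chaperone, had ratios of 0.990 in set 2 and 1.06 in set 3, *P4hb*, a subunit of prolyl 4-hydroxylase, 1.01 and 1.22, and *Sparc*, a collagen-binding matrix protein, 0.958 and 0.804. Lower in set 3 were *Colgalt2* at 0.0295, a galactosyltransferase of hydroxylysine, the prolyl 3-hydroxylase genes *P3h2* (0.415) and *P3h3* (0.415), *Plod1* (0.608), *Fkbp14* (0.628) and *Crtap* (0.656). *Plod3*, a lysyl hydroxylase, was at 1.66, and *P4ha3* at 0.553 in set 2.

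Among 10 genes for processing and crosslinking in stroma, 4 were higher and 2 lower in set 3, against the same 16.2% and 30.7% of all genes. The lysyl oxidases, which crosslink fibrils, were *Loxl1* at 2.67, *Lox* at 2.0, *Loxl2* at 1.77 and *Loxl3* at 0.529, and the procollagen N-proteinases *Adamts3* and *Adamts14* were at 1.52 and 0.533. In set 2, *Adamts3* (1.76) and *Lox* (1.66) were higher and *Pcolce2* (0.412) was lower. Of 7 receptors, *Itga2*, a subunit of a collagen-binding integrin, was at 3.58 and 2.79 in sets 2 and 3, but its level over all sets was 0.0892 in stroma against 0.0842 in myeloid cells and 1.57 in granulosa, so its stroma values cannot be told apart from free RNA. *Ddr1* was at 1.57 and the uptake receptor *Mrc2* at 0.478 in set 3. Of 4 genes for cleavage, *Ctsk* was at 0.316 and *Fap* at 0.550 in set 3 and none passed 1.5 fold in set 2.

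In the other gates, set 3 against set 1 gave 5 of 10 processing genes higher and 1 lower in granulosa (median log2 ratio 0.83), 3 of 8 higher and 1 lower in theca, 3 of 6 higher and 1 lower in endothelial cells and 2 of 6 higher in mural cells. For synthesis and folding, the numbers higher and lower were 4 and 5 of 21 in granulosa, 3 and 5 of 19 in theca, 2 and 2 of 20 in endothelial cells and 2 and 1 of 19 in mural cells. Of all genes compared, 16.8% were higher and 25.9% lower in granulosa, 16.7% and 29% in theca, 11.6% and 22.3% in endothelial cells and 14.3% and 20.9% in mural cells. In granulosa, *Lox* was at 10.6, *Adamts3* at 11.1 and *Itga2* at 4.92, and *Itga2* in theca was at 16.9.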

How the data were processed

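Single-cell RNA-seq was measured with 10x Genomics droplets and Illumina sequencing in 3 ovary libraries. The authors deposited 1 table of natural log values, ln(1 + UMIs per 10000 of a cell), for 24958 genes and 31776 cells. The submitters' processing notes name Cell Ranger, Seurat and mm10. Gene annotation, cell filters and any doublet step are not given in the sources used here. UMIs were recovered from the deposited natural log values, and 100% of 80167176 values above 0 came out whole within 0.01. Totals were 81367055, 72906577 and 85756955 UMIs in sets 1, 2 and 3, and 500 was the lowest in a cell.

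Cells were scored for each marker list by the mean of each marker's log level over its 95th percentile, up to 1. A gate was the highest list with 3 or more markers detected and a margin of 0.05, and theca also needed *Cyp17a1* at 2 per 10000 or more, which left 1838 other steroidogenic cells out. Doublets were not removed. Ratios needed 30 UMIs over both sets and 1.5 fold for a call, and no test was made because each time had 1 library. Intervals (95%) are exact Poisson for levels, on the effective count of weighted UMIs, conditional binomial for ratios and Clopper-Pearson for shares. Cells were thinned to 3000 UMIs with a fixed seed. Members with 1000 or more UMIs were described in full and those with 100 or more named, with the 3 largest and 3 smallest ratios of each comparison. Pathway genes were named where they passed 1.5 fold in stroma, and the rest of those named were chosen after their values were seen. The members and lists were chosen with earlier results of these data known, and gate thresholds after marker values and clusters, though not collagens, had been seen. Alternatives changed the gates, cells, totals, scale, depth and thresholds. The interval steps were tested on simulated Poisson counts with 1 rate for each gene in a set and no other spread between cells. That setting is the one the intervals assume, so it cannot show how they hold where cells vary more. Python 3.11.15, numpy 2.4.6, scipy 1.17.1, pandas 2.3.3, scikit-learn 1.9.0 and igraph 0.11.9 were used.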

Additional observations from a re-analysis of the deposited data

Results flagged for a closer look

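Some members differed between the sets in opposite directions in different gates. The difference between gates was not tested, since each set is 1 library, and the ratios are of the level in a set to that in set 1. *Col11a1* in set 3 was at 1.69 in theca (levels of 0.424 against 0.251), at 0.622 in stroma (0.749 against 1.2) and at 0.277 in granulosa (0.353 against 1.28). *Col6a2* in set 3 was at 1.63 in granulosa (0.148 against 0.0907), at 0.601 in stroma (1.85 against 3.08) and at 0.514 in theca (0.624 against 1.22). *Col8a1*, the short-chain collagen, in set 3 was at 2.04 in stroma (0.167 against 0.0822) and at 0.0740 in theca (0.0300 against 0.406). *Col15a1*, a multiplexin, in set 2 was at 1.69 in endothelial cells (0.478 against 0.283) and at 0.643 in stroma (0.523 against 0.813). *Col27a1* in set 2 was at 2.81 in mural cells (0.252 against 0.0895), at 0.476 in theca (0.0742 against 0.156) and at 0.662 in granulosa (0.203 against 0.306), and the mural value has a counting interval of 1.03 to 8.69.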

How the results depend on the processing

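No paired analysis was possible because each time after hCG has 1 library and no label ties a barcode ending to a library, so there is no replicate, no test and no library to leave out. Of the values that answer a comparison, 142 of 186 recomputed under an alternative stayed within a limit (1.5 times for counts, the 95% counting interval for shares, and for medians the interval given by the ranks of the members' ratios) and 44 moved further. Of the ratios of single members, 412 of 504 stayed within their 95% counting interval, 89 moved further and 3 turned: *Col14a1* in mural cells in set 2 was at 1.19 with gates from the cluster vote, and *Col23a1* in theca in set 2 was at 1.00 without cells that held 3 or more markers of another gate and at 1.08 with thinned cells. The share of collagen UMIs with the cluster vote was 63.5% in stroma, 4.50% in mural cells, 12.5% in theca and 9.03% in granulosa. Without the cells with markers of another gate (4349 stroma, 199 mural, 747 endothelial, 1399 theca and 10249 granulosa cells left out), the shares were 22.5%, 1.19%, 1.84% in endothelial cells, 1.98% in theca and 1.33% in granulosa. The total behind these values still holds the collagen UMIs of the cells left out, so they are not shares among the kept cells. Thinned, the shares were 64.1% in stroma, 3.35% in mural cells, 4.62% in endothelial cells and 6.17% in theca. The endothelial gate was highest for 1 member without those cells and for 1 with thinned cells, and granulosa for 8 without those cells. The members past 1.5 fold with the cluster vote were 11 in mural set 3, 12 in endothelial set 3 and 14 in granulosa set 2. Without the cells with other markers they were 3 in stroma set 2, 1 and 11 in mural sets 2 and 3 and 1 and 3 in endothelial sets 2 and 3. Mural set 2 gave 11 with summed UMIs, 8 with log means and 3 thinned, and thinned cells gave 4 in endothelial set 3 and 4 in theca set 2. At 2 fold there were 3 and 2 in mural sets 2 and 3, 1 and 3 in endothelial sets 2 and 3, 3 in theca set 2 and 3 in granulosa set 2. With 100 or more UMIs, there were 0 and 4 in mural sets 2 and 3, 2 in endothelial set 3 and 2 in theca set 2. The median log2 ratio of members was −0.11 and 0.26 in mural sets 2 and 3 and 0.33 in granulosa set 2 with the cluster vote, and in granulosa set 2 0.30 without the cells with other markers and −0.16 with summed UMIs. The stroma count in set 3, 23, lay between 18 and 24 under every alternative tried. The cause of these changes was not tested. On log means, the median of all genes moved by 0.17 in stroma set 3, −0.11 in endothelial set 3 and −0.14 in theca set 2, and without the cells with other markers by 0.16 in granulosa set 2. The highest gate changed for *Col11a1* and *Col20a1* with the cluster vote, and for *Col11a1*, *Col27a1*, *Col28a1*, *Col6a2* and *Col13a1* without the cells with other markers. It also changed for *Col5a2* and *Col20a1* with log means and for *Col11a2*, *Col9a3*, *Col20a1* and *Col13a1* with thinned cells. With 100 or more cells as the minimum, the family held 38 members.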

Other observations

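Contractile smooth muscle cells (524 cells, chosen by markers and outside the gates compared above) had shares of the classes close to those of stroma. Fibrillar members took 58.8% of their collagen UMIs and type IV members 25.9%, against 61.3% and 21.9% in stroma. Of these cells 106 lay within 0.02 of the margin that decided the gate. *Col1a1* was at 12.7, 15.1 and 12.6 UMIs per 10000 in sets 1, 2 and 3 and *Col3a1* at 11.4, 14.4 and 13.1. *Col11a1* was at 2.43, 3.33 and 1.73, above its levels in stroma and in granulosa in each set. *Col4a5* was at 0.544, 0.556 and 0.133, lowest in set 3 as in granulosa and stroma. *Col5a3*, the type V chain of mural cells, was at 0.0157, 0.00715 and 0.00635, and *Col15a1* at 0.164, 0.0465 and 0.137, both below their mural levels in each set. *Col1a2* was at 14.3, 14.9 and 9.53, and *Col4a1* at 7.63, 7.61 and 12.3.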
